A study of Gallus gallus with 8 samples.

Results

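Cytokines are small secreted proteins by which blood cells instruct each other, chemokines are cytokines that steer cell movement, and both act through receptors on the cell surface. Of the 7824 named genes on a chicken microarray, 62 belonged to these families. They were taken by their gene symbols, which begin as those of interleukins and their receptors, CC, CXC and CX3C chemokines, colony-stimulating factors 1 to 3, transforming growth factor beta (TGF-beta) ligands and receptors, and the receptors of interferons alpha and gamma, LIF and oncostatin M do. IL7R, IL18R1 and CSF3R were left out. By role, 31 genes encode ligands, 30 encode receptor chains, and 1, IL4I1, encodes an amino acid oxidase that carries an interleukin-like name. They were read by 155 of the 60539 probes. A further 37 genes of the reference that fit the same symbols, among them CCL19, CSF1, CSF1R, TGFB1, IL7, IL12A, IL34, IL1RAP and OSMR, had no named probe and were not analysed here.

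Male broiler chickens of 9 weeks, 4 in number, had each given whole blood and peripheral blood mononuclear cells (PBMC), which made 4 arrays per sample type. The birds were reared under standard conditions. Whole blood holds all blood cells, including the nucleated red cells and thrombocytes of birds. PBMC were separated by density on Ficoll right after sampling, a step that keeps lymphocytes, monocytes and other light cells. The labels name no stimulation or sorting, and no cell counts were used here. Both sample types are cell mixtures, so a change in the number of cells of a type cannot be told apart from a change in RNA per cell.

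Many ligand genes are low in resting blood cells and are switched on for short periods after infection or injury, whereas many receptor chains are kept on the surface so that a cell can respond. This is background and was not tested here. Many receptors share chains. The common gamma chain (IL2RG) serves IL-2, IL-4, IL-9, IL-15 and IL-21, gp130 (IL6ST) serves the IL-6 family, and IL10RB serves IL-10, IL-22 and the lambda interferons. Most of these receptors signal through JAK kinases and STAT factors, the IL-1 receptors through MYD88 and NF-kappaB, and the TGF-beta receptors through SMAD proteins. The roles given here are those known in mammals unless chicken is named.

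Receptors were detected more widely than ligands. In whole blood, 24 of 30 receptor genes and 15 of 31 ligand genes had at least 1 probe well above background on all 4 arrays, which is 80% and 48.4%, against 71.7% of all named genes. In PBMC the numbers were 25 receptors (83.3%) and 15 ligands (48.4%), against 73.4% of all named genes. In both sample types together, 23 receptors and 14 ligands were detected on all 8 arrays. Of the ligands, 9 (29.0%) were detected on none of the 8 arrays by any probe, and of the receptors 3 (10%), against 13.7% of all named genes. Detection on at least 1 of the 4 arrays held for 26 receptors and 21 ligands in whole blood and for 27 receptors and 19 ligands in PBMC. The gap was thus narrower than on all 4 arrays in both sample types, more so in whole blood. No share of all named genes is given for this looser threshold. The median number of probes was 2 per gene for ligands, for receptors and for all named genes. The difference between ligands and receptors was not tested, and being below background on an array does not show that a transcript is absent.

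Detection differed somewhat between arrays. On single arrays, 16 to 20 ligands were detected in whole blood and 15 to 19 in PBMC. The lowest count, 15, was that of the PBMC array of bird 4. Without bird 4, 18 ligands were detected on all PBMC arrays left, whereas leaving out any other bird kept the count at 15. Receptors detected per array numbered 24 to 26 in whole blood and 25 to 27 in PBMC. The 9 ligands detected nowhere were IL3, IL5, IL9, IL10, IL12B, IL17D, IL21, CX3CL1 and IL8L1. They include helper T cell products (IL5, IL9, IL21), the anti-inflammatory IL10, the shared subunit of IL-12 and IL-23 (IL12B, read by 5 probes) and a chicken relative of CXCL8 (IL8L1). IL17D is annotated in the reference as a transcribed pseudogene. The 3 receptors detected nowhere were LIFR, IL22RA1 and IL17RD.

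**Figure D1:**
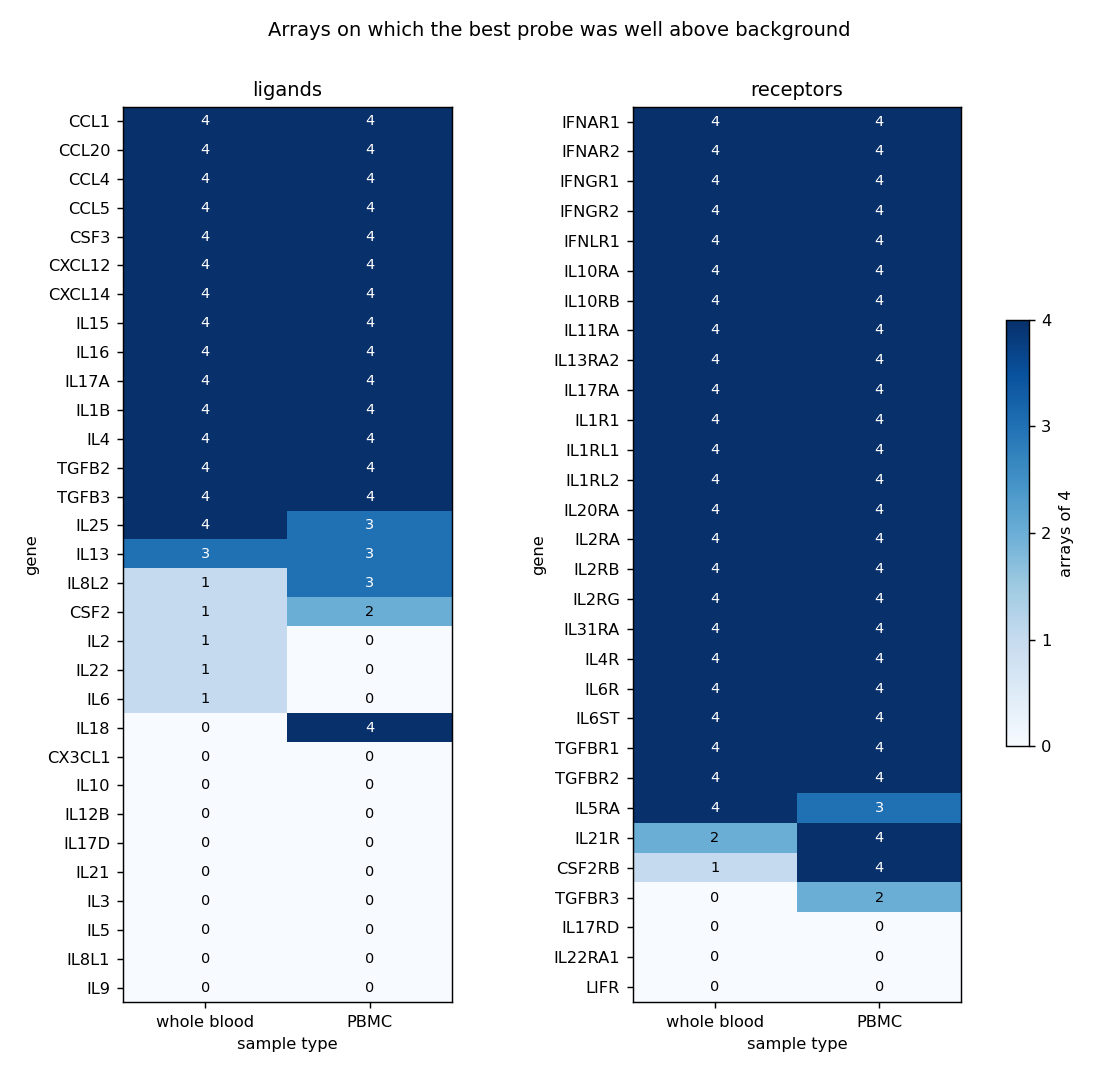
Each cell gives the number of arrays, of 4 per sample type, on which the probe of the gene with the widest detection was well above background, for the 31 ligands (left) and 30 receptors (right). Receptors are filled in both columns for 23 genes and ligands for 14, and 9 ligands and 3 receptors are empty.

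A few genes were seen on some arrays only. IL2, the T cell growth factor, was read by 8 probes and passed on 1 whole blood array and no PBMC array. IL6 and IL22 each passed on 1 whole blood array and no PBMC array. CSF2, the granulocyte and macrophage growth factor, passed on 1 whole blood and 2 PBMC arrays, IL13 on 3 and 3, and TGFBR3, the TGF-beta co-receptor betaglycan, on 0 and 2. The oxidase IL4I1 passed on 2 whole blood arrays and no PBMC array.

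IL8L2, a chicken chemokine related to CXCL8, differed between birds. A level is the log2 of the signal after division by the 75th percentile of its array, so that 0 equals that percentile and each unit is a doubling. In whole blood IL8L2 read -7.32, -7.18, -7.19 and -7.63 in birds 1 to 4, and in PBMC it read -2.96, -5.44, -2.06 and -5.99. Birds 1 and 3, which share 1 row of the slide, had the high PBMC values, and birds 2 and 4, on the other row, the low ones, so row and bird cannot be told apart here or in any other pattern that sets these birds apart. In addition, no whole blood array was well above background with this probe. The gene failed the detection needed for a test, since 3 and not 4 PBMC arrays passed.

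For 16 ligands, 1 or more chains of their known receptor were among the genes measured, and 10 of these ligands were not detected on all 4 arrays of either sample type. For 9 of those 10 ligands, each listed chain of the receptor was detected on all 4 arrays of whole blood or of PBMC, judged chain by chain. Examples are IL10 with IL10RA and IL10RB, IL21 with IL21R and IL2RG, and IL6 with IL6R and IL6ST. IL5 is counted too, but its chains passed in different sample types. IL5RA passed on 4 whole blood and 3 PBMC arrays, and CSF2RB on 1 and 4. Of the 10 ligands the exception was IL22, for which IL10RB was detected and IL22RA1 was not. Of all 30 receptor genes, only 4 were not detected on all 4 arrays of either sample type, so such detection was common. IL2RG and CSF2RB each count for several of these ligands, so the 9 are not separate observations. Only chains with a named probe were listed. IL9 was thus judged by IL2RG alone, IL3 and CSF2 by CSF2RB alone, and IL13 by IL4R and IL13RA2. IL9R, CSF2RA and IL13RA1 had no named probe, so complete receptors are not shown for these ligands.

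A difference between sample types was tested for a gene whose probe stood well above background in all 4 whole blood samples or all 4 PBMC samples, which held for 42 of the 62 genes. All differences are log2 values, PBMC minus whole blood, with the standard error (SE) of the limma fit over 4 and 4 arrays and p-values adjusted by Benjamini-Hochberg over all 33756 features tested. This fit did not pair the samples of a bird, nor did those on single slide rows or with arrays or birds left out. The SE thus includes differences between birds. A gene was called higher or lower where the adjusted p was under 0.05. Of all features tested, 79.1% were called, 39.7% higher and 39.4% lower in PBMC, so a call by itself is common in this comparison. Of the tested cytokine and receptor genes, 31 of 42 (73.8%) were called, 24 higher and 7 lower, and the other 11 were not called. Their arrays did not overlap between the sample types for 26 of 42 genes, against 73.3% of all features tested, and 26 were called with at least a 2-fold difference, against 61.5%.

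Receptors leaned towards PBMC. Of 26 tested receptors 17 (65.4%) were higher in PBMC, 3 (11.5%) were lower and 6 were not called, with a median difference of 1.69. Of 16 tested ligands 7 (43.8%) were higher, 4 (25.0%) were lower and 5 were not called, with a median of 0.37. The median over all features tested was 0.0030 and over the tested named genes 0.12, and of those named genes 79.7% were called, 42.2% higher and 37.5% lower. Some of the tested genes entered through 1 sample type, judged by the probe with the highest mean. By that probe IL18, CSF2RB, IL21R, IL2RA and IFNLR1 met the detection rule in PBMC alone, and IL25 and IL5RA in whole blood alone. For IL2RA and IFNLR1 another probe passed on all 4 whole blood arrays. For 21 receptors and 14 ligands the probe with the highest mean was well above background on each of the 8 arrays. Of these, 16 receptors and 10 ligands were called, against 78.3% of all such features.

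**Figure D2:**
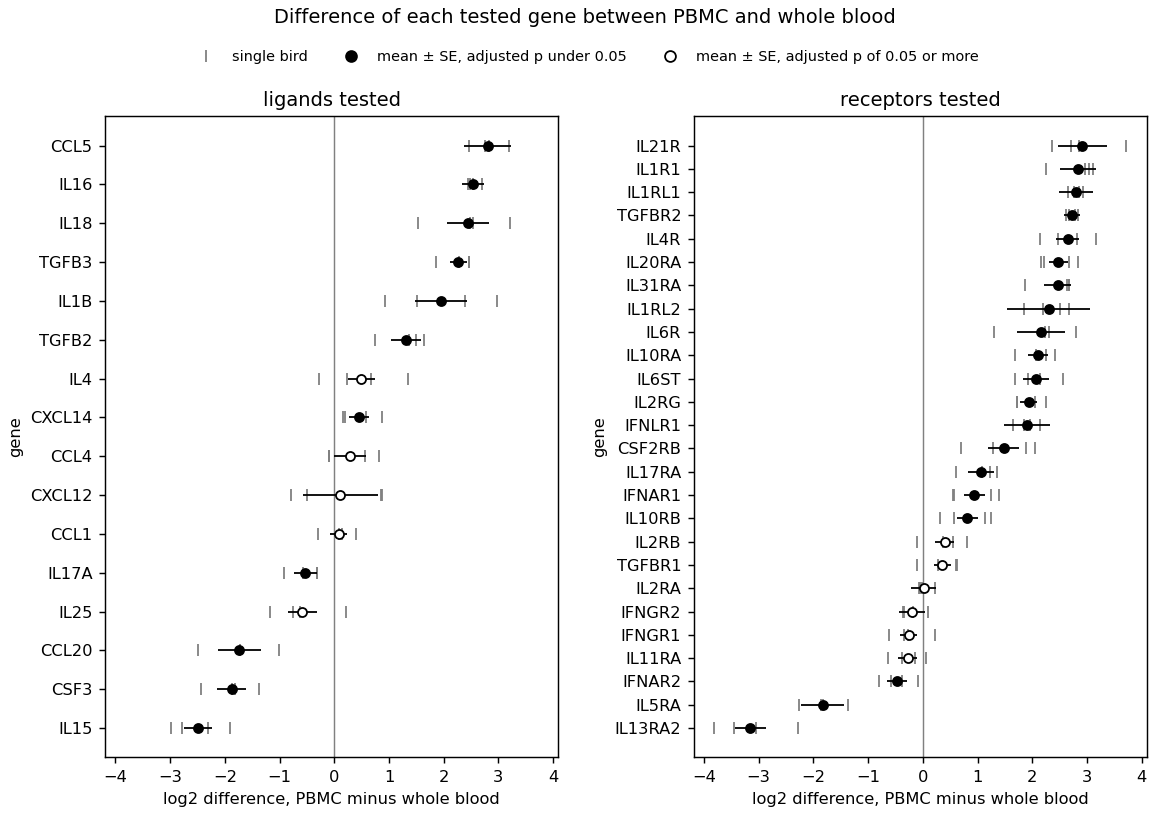
Log2 difference, PBMC minus whole blood, of the 16 tested ligands (left) and 26 tested receptors (right), with circles at the mean, bars of 1 SE and ticks for each of the 4 birds. Filled circles mark adjusted p under 0.05. Receptors range from -3.15 (IL13RA2) to 2.91 (IL21R) and ligands from -2.49 (IL15) to 2.81 (CCL5).

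The ligands higher in PBMC were led by a chemokine and by IL16. CCL5 attracts T cells and monocytes and is made by activated T cells and natural killer cells. Its level in whole blood was -4.91, -3.75, -4.73 and -3.19 in birds 1 to 4, and in PBMC it was -2.09, -0.99, -1.53 and -0.73. All PBMC arrays lay above all whole blood arrays, and birds 2 and 4 were the higher ones in both sample types. The difference was 2.81 ± 0.43 (SE), a 7.01-fold higher signal, with an adjusted p of 0.00025. It was smaller, but still called, with normexp background correction (1.72) and in the authors' deposited values (1.82).

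IL16 is released from a precursor and attracts cells that carry CD4. Whole blood gave -0.48, -0.29, 0.20 and -0.33, and PBMC gave 2.06, 2.15, 2.68 and 2.37. The groups stood far apart and the 4 birds rose by nearly equal amounts, between 2.44 and 2.70. The difference was 2.54 ± 0.20 (adjusted p = 3.6e-06), and the 4 detected probes of the gene lay between 2.37 and 2.57.

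Both IL-1 family ligands measured were higher in PBMC, where 39.7% of all features tested were called higher. IL18, which drives interferon gamma production and is cut to its active form by caspase 1, passed background on no whole blood array and on all 4 PBMC arrays. The PBMC values were -4.66, -3.36, -2.75 and -3.00, with bird 1 the lowest, and the whole blood values were -6.19, -5.89, -5.97 and -5.47. In the main values the PBMC mean lay 4.68-fold above a floor. The floor was the higher of the probe's own whole blood signal and the lowest signal that passed, taken on each array. No sampling error is attached to this value, and it holds for the main values only. The fitted difference of 2.44 (adjusted p = 0.00030) fell to 0.71 with normexp and to 0.79 in the authors' deposited values, and was called in both. A second probe, also not well above background in whole blood, had a PBMC mean 3.31-fold above its floor.

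IL1B, the fever-inducing cytokine of monocytes and macrophages, varied between birds. In whole blood it was -4.72, -4.58, -4.12 and -2.91, and in PBMC it was -2.33, -3.06, -1.15 and -1.98. Every bird was higher in PBMC, by 0.94 to 2.97, but the whole blood of bird 4 exceeded the PBMC of bird 2, so the groups overlapped. The difference was 1.95 ± 0.48 (adjusted p = 0.0045), and 1.95 ± 0.32 (adjusted p = 0.00084) with the bird as a block. It was 1.02 with normexp, 1.05 in the authors' deposited values and 0.96 as the mean of all probes. On slide row 1, which holds birds 2 and 4, it was 1.23 (adjusted p = 0.15). On slide row 2, which holds birds 1 and 3, it was 2.68. A second probe of IL1B, well above background on 1 whole blood array and 2 PBMC arrays, differed by -0.03 and was not tested.

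The TGF-beta ligands TGFB3 and TGFB2, which restrain lymphocytes and shape tissue growth, were both higher in PBMC. TGFB3 was -1.96, -1.64, -1.69 and -1.43 in whole blood and 0.51, 0.64, 0.78 and 0.43 in PBMC. These arrays were tightly grouped within each sample type and did not overlap (2.27 ± 0.16, adjusted p = 1.8e-06). TGFB2 was -4.24, -3.81, -4.59 and -4.39 in whole blood and -3.50, -2.33, -3.23 and -2.74 in PBMC. All PBMC arrays were again above all whole blood arrays, with bird 1 the nearest (1.31 ± 0.27, adjusted p = 0.0018). Normexp lowered the TGFB2 difference to 0.59, and the authors' deposited values gave 0.62, both called.

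The smallest called rise of a ligand was that of CXCL14, a chemokine of epithelia (0.45 ± 0.19, adjusted p = 0.048). Its groups overlapped, and the call was lost under most alternatives tried, with adjusted p up to 0.90 under cyclic loess scaling. The other probe of CXCL14 was well above background on 0 arrays of either sample type.

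The 4 ligands lower in PBMC were IL15, CSF3, CCL20 and IL17A. IL15 keeps memory T cells and natural killer cells alive. Its level was 5.40, 4.82, 5.29 and 4.55 in the whole blood of birds 1 to 4 and 2.42, 2.04, 2.99 and 2.64 in their PBMC. The whole blood signals were thus far above the 75th percentile of each array, and all PBMC values were lower. The difference was -2.49 ± 0.26, a 5.64-fold lower signal in PBMC with an adjusted p of 1.8e-05, and the 4 probes of the gene gave -2.49 to -2.37. Among the receptor chains through which IL-15 signals, IL2RG was higher in PBMC (1.94 ± 0.15) and IL2RB was not called (0.40 ± 0.17, adjusted p = 0.056).

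CSF3, the granulocyte growth factor, was -1.73, -2.35, -2.75 and -3.00 in whole blood and -4.16, -4.22, -4.57 and -4.38 in PBMC. The whole blood arrays were spread out and the PBMC arrays close together, without overlap (-1.88 ± 0.26, adjusted p = 0.00014). After normexp it was -0.92, and the authors' deposited values gave -1.23, both called.

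CCL20, which attracts lymphocytes and dendritic cells, was -1.70, -0.83, -0.80 and -1.67 in whole blood and -3.42, -1.85, -3.28 and -3.38 in PBMC. Bird 2 stood apart in PBMC, well above the other PBMC arrays and just below the lowest whole blood array. The difference was -1.73 ± 0.39 (adjusted p = 0.0026) and, on slide row 1 alone, -1.37 with an adjusted p of 0.085.

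IL17A, a T cell cytokine that calls in granulocytes, changed little. It was -4.72, -4.82, -4.56 and -4.16 in whole blood and -5.03, -5.13, -5.48 and -4.73 in PBMC. All 4 birds were lower in PBMC, but the groups overlapped. The difference was -0.53 ± 0.21 (adjusted p = 0.040), and -0.53 ± 0.16 (adjusted p = 0.017) with the bird as a block. In the fit without a block, leaving out bird 1, 2 or 3 raised the adjusted p to 0.072, 0.070 and 0.16. With normexp the difference was -0.22 (adjusted p = 0.100) and in the authors' deposited values -0.32 (adjusted p = 0.055). Its receptor chain IL17RA was higher in PBMC (1.06 ± 0.23, adjusted p = 0.0023), with an adjusted p of 0.056 on slide row 1 alone.

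**Figure D3:**
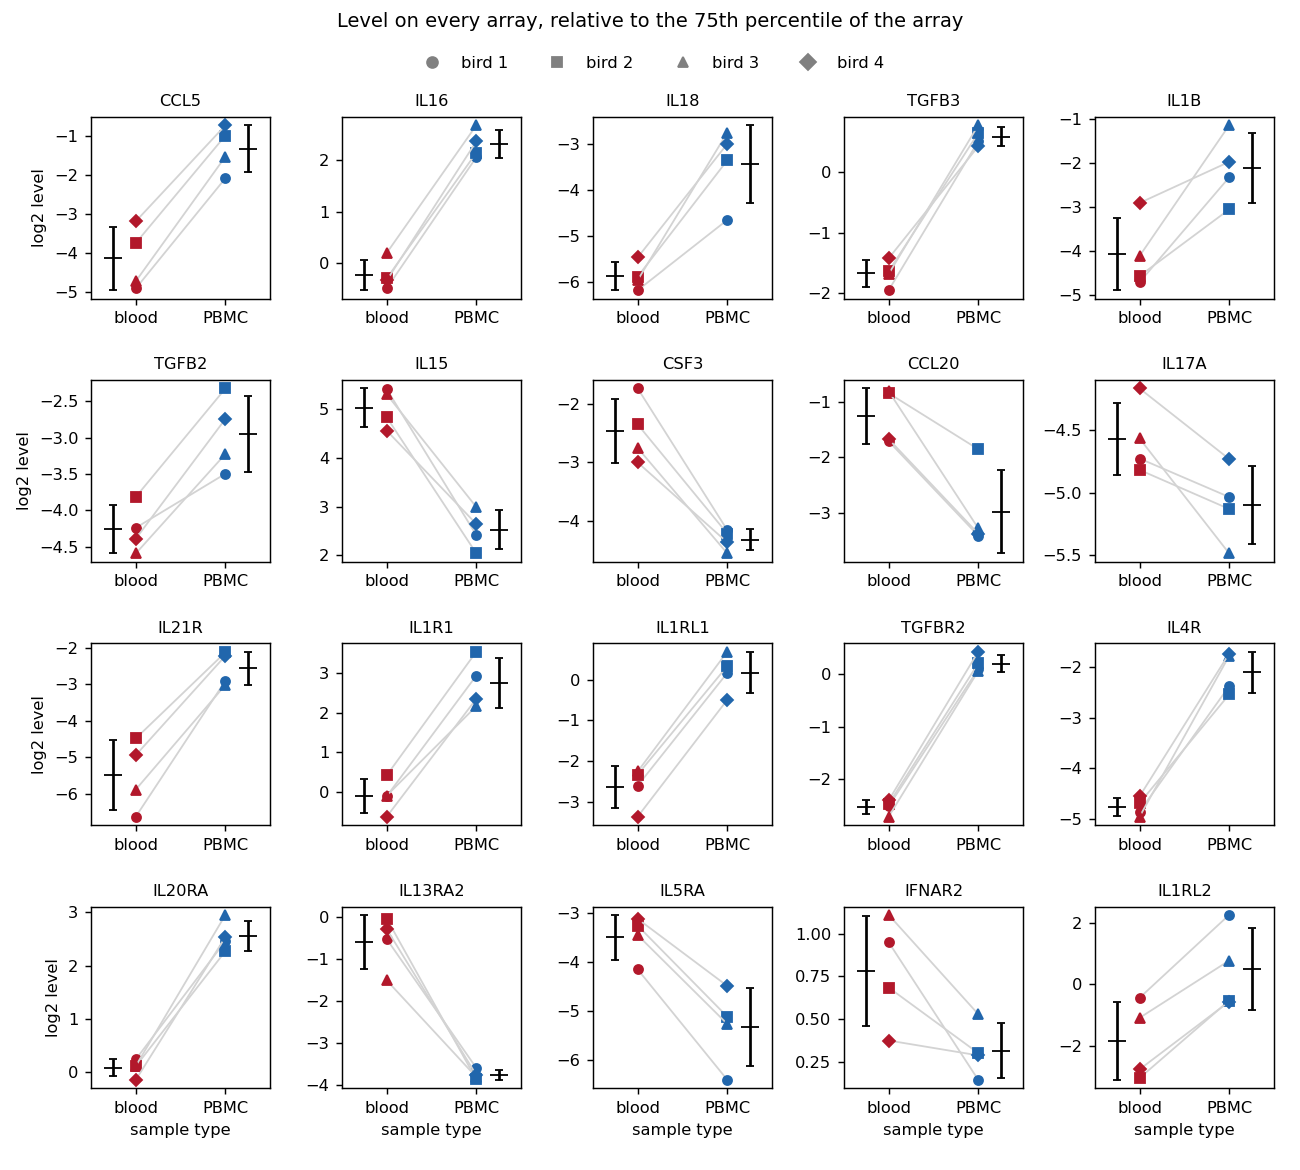
Log2 level, with the array's 75th percentile at 0, for 10 ligands and 10 receptors, with 1 symbol per bird, whole blood on the left of each panel and PBMC on the right, lines joining the samples of a bird, and the group mean with a bar of 1 SD beside the points. Axes differ between panels. CCL5, IL16, TGFB3 and TGFBR2 separate without overlap, whereas IL1B, IL17A, IFNAR2 and IL1RL2 overlap between sample types.

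The other 5 tested ligands were not called. CCL4, a chemokine of activated white cells, differed by 0.30 (unadjusted 95% interval -0.37 to 0.96), CCL1 by 0.08 (-0.27 to 0.44), IL4, the helper T cell cytokine of antibody responses, by 0.50 (-0.07 to 1.06) and IL25, an IL-17 relative, by -0.58 (-1.19 to 0.03). IL25 was called lower with the bird as a block (adjusted p = 0.048), with quantile scaling (-0.83, adjusted p = 0.018), with cyclic loess scaling (-0.90, adjusted p = 0.012), without the whole blood array of bird 3 (adjusted p = 0.014) and without bird 3 (adjusted p = 0.021). IL4 was called higher on slide row 1 alone (1.01, adjusted p = 0.023), without the PBMC array of bird 1 (0.66, adjusted p = 0.036) and without bird 1 (0.76, adjusted p = 0.030). The other probes of IL4 were each well above background on at most 1 whole blood array and at most 3 PBMC arrays. CXCL12, the ligand of CXCR4, had a wide interval (0.11, from -1.43 to 1.66), and its birds differed more than its sample types. It was -2.87, -1.20, -1.70 and -1.01 in whole blood and -3.37, -1.98, -0.85 and -0.13 in PBMC. Birds 1 and 2 were lower in PBMC and birds 3 and 4 higher. These values are from the only detected probe of CXCL12. Its other probes were well above background on 0 arrays of either sample type, with group means from -8.02 to -7.18.

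Among the common gamma chain and its partner chains, 3 of 5 genes were higher in PBMC and 2 were not called. Of all features tested, 39.7% were called higher, so such counts over a few genes are not results about a family. IL21R, through which IL-21 acts on B and T cells, was well above background on 2 whole blood arrays and on all PBMC arrays. It was -6.62, -4.48, -5.88 and -4.94 in whole blood and -2.91, -2.13, -3.02 and -2.22 in PBMC. Birds 2 and 4 were higher than birds 1 and 3 in both sample types, and the groups did not overlap (2.91 ± 0.45, adjusted p = 0.00026). It was 1.22 after normexp, 1.44 in the authors' deposited values and 1.45 as the mean of all probes, all called. The other probe of IL21R was well above background on 0 arrays of either sample type, with group means of -7.86 and -7.87.

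IL4R, the chain that binds IL-4, was -4.85, -4.68, -4.95 and -4.55 in whole blood and -2.38, -2.54, -1.78 and -1.74 in PBMC. The whole blood values were close to each other, and every PBMC value was at least 2 units above them. The difference was 2.65 ± 0.21 (adjusted p = 4.2e-06), and 1.34 with normexp and 1.48 in the authors' deposited values. IL4R and IL21R are next to each other in the reference annotation.

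IL2RG, the common gamma chain itself, was nearly constant over the PBMC arrays (5.41 ± 0.02, SD, n = 4) and lower in whole blood (3.47 ± 0.26). Its difference of 1.94 was shared by 4 probes within 1.86 to 1.94.

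IL13RA2 was lower in PBMC. In mammals it is a decoy that binds IL-13 and passes on little signal. It was -0.53, -0.05, -1.51 and -0.30 in whole blood and -3.59, -3.86, -3.80 and -3.75 in PBMC. The PBMC arrays lay close together, and each bird was lower in PBMC, with differences from -3.81 to -2.29. The difference was -3.15 ± 0.29, an 8.89-fold lower signal in PBMC (adjusted p = 9.0e-06), and a second probe gave -3.07. With normexp it was -2.23.

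The IL-2 receptor chains IL2RA and IL2RB were not called. IL2RA marks activated and regulatory T cells, and the probe that stands for it gave 0.02 (-0.49 to 0.54). Of its other detected probes, 1 gave -0.11, and the other was well above background on no whole blood array and on all 4 PBMC arrays. Its PBMC mean lay 1.90-fold above a whole blood floor set as for IL18. The fitted difference of that probe, which rests on whole blood signals not well above background, was 2.61 (adjusted p = 1.0e-06). IL2RB, shared by IL-2 and IL-15, gave 0.40 (0.01 to 0.80).

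All 3 IL-1 receptor family genes among those taken by symbol here were higher in PBMC, and they lie next to each other in the reference annotation. The share of all features tested that were called higher was 39.7%. IL1R1, the signalling receptor of IL-1, was -0.10, 0.42, -0.09 and -0.62 in whole blood and 2.93, 3.53, 2.16 and 2.35 in PBMC. The lowest PBMC array was well above the highest whole blood array (2.84 ± 0.33, adjusted p = 3.8e-05), and 3 probes gave 2.83 to 2.85. IL1RL1, the receptor of IL-33 in mammals, was -2.59, -2.32, -2.25 and -3.35 in whole blood and 0.16, 0.33, 0.68 and -0.49 in PBMC. Bird 4 was the lowest in both sample types and bird 3 the highest (2.80 ± 0.31, adjusted p = 3.0e-05), and the 7 probes lay between 2.44 and 2.80.

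IL1RL2, the receptor of the IL-36 cytokines in mammals, differed between birds as much as between sample types. It was -0.43, -3.02, -1.08 and -2.74 in whole blood and 2.25, -0.52, 0.77 and -0.55 in PBMC. Birds 1 and 3 were high and birds 2 and 4 low in both sample types, so that the whole blood of bird 1 exceeded the PBMC of birds 2 and 4. Here too the split follows the slide rows. The rise within birds was 1.85 to 2.68. The difference was 2.31 ± 0.76 (adjusted p = 0.019), and 2.31 ± 0.18 (adjusted p = 1.6e-05) with the bird as a block. Without whole blood replicate 2 or 4 the adjusted p was 0.053 and 0.054, with differences of 1.90 and 2.00, and without PBMC replicate 1 the difference was 1.72. Some other probes of IL1RL2 were dim, well above background on 0 whole blood arrays and on 1 or 2 PBMC arrays.

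The TGF-beta receptor chains did not move together. TGFBR2, the chain that binds the ligand, was -2.52, -2.47, -2.71 and -2.41 in whole blood and 0.10, 0.21, 0.06 and 0.43 in PBMC. Both groups were tight and far apart (2.73 ± 0.14, adjusted p = 5.5e-07), and the 4 probes gave 2.62 to 2.86. TGFBR1, the kinase chain that TGFBR2 activates, was not called through the probe that stands for it (0.35, -0.0011 to 0.70). Its other probe, well above background on all 8 arrays, was lower in PBMC (-2.01 ± 0.13, adjusted p = 1.0e-06).

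In the gp130 group, 3 of the 4 tested genes were higher in PBMC, against 39.7% of all features tested. IL6ST itself rose by 2.07 ± 0.24 (1.18 with normexp and 1.27 in the authors' deposited values), IL6R, the IL-6 binding chain, by 2.16 ± 0.44 and IL31RA, a gp130 relative, by 2.47 ± 0.24. IL6R was also variable among birds, from -1.97 to 0.01 in whole blood and from 0.34 to 1.88 in PBMC. IL11RA was not called with its first probe (-0.27, -0.66 to 0.12), whereas a second probe gave 1.91 ± 0.36 (adjusted p = 0.00084). The first probe was called lower in the authors' deposited values (-0.41, adjusted p = 0.023) and without the PBMC array of bird 3 (-0.40, adjusted p = 0.046).

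The interferon and IL-10 receptor chains were mixed. IL20RA, a chain for IL-19, IL-20 and IL-24 in mammals, was 0.24, 0.12, 0.12 and -0.14 in whole blood and 2.46, 2.27, 2.95 and 2.54 in PBMC. The groups were tight and did not overlap (2.47 ± 0.17, adjusted p = 2.0e-06). IL10RA, the IL-10 binding chain, was higher in PBMC by 2.10 ± 0.18, and IFNLR1, the lambda interferon chain, by 1.90 ± 0.42. For IFNLR1 a second probe gave 0.66 (adjusted p = 0.11), and the gene gave 0.91 after normexp, 1.01 in the authors' deposited values and 1.28 as the mean of the probes.

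IFNAR2, IL10RB, IFNAR1 and IFNGR2 follow each other in the reference annotation and did not share a direction. IFNAR2, the high-affinity chain for type I interferon, was 0.95, 0.68, 1.11 and 0.37 in whole blood and 0.14, 0.30, 0.53 and 0.29 in PBMC. All 4 birds were lower in PBMC, with differences of -0.09 in bird 4 and -0.81 in bird 1, and the groups overlapped. The difference was -0.46 ± 0.18 (adjusted p = 0.042). It was not called without bird 1, 2 or 3 (adjusted p = 0.19, 0.10 and 0.087) or under quantile or cyclic loess scaling. With all 4 birds and the bird as a block it was called (adjusted p = 0.031). The other probes of IFNAR2 gave -0.70 to -0.54, all called lower. With the mean of all probes IFNAR2 was at -0.58 (adjusted p = 0.017). Its partner IFNAR1 was higher in PBMC (0.94 ± 0.19, adjusted p = 0.0014), as was IL10RB (0.81 ± 0.19, adjusted p = 0.0033). IFNGR2 (-0.20, -0.73 to 0.34) and IFNGR1 (-0.25, -0.61 to 0.10), the chains for interferon gamma, were not called, although the other detected probes of IFNGR1 gave -0.99 and -0.53, both called. IFNGR1 was called lower in the authors' deposited values (-0.39, adjusted p = 0.019) and with the mean of all probes (-0.59, adjusted p = 0.0030). IL10RB had 1 of 4 probes in the other direction (-0.48, adjusted p = 0.060), and on slide row 2 alone its difference was 0.44 (adjusted p = 0.12).

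The beta common chain group went both ways. IL5RA, which binds IL-5 and marks eosinophils and some B cells in mammals, was -4.15, -3.25, -3.45 and -3.11 in whole blood and -6.41, -5.12, -5.27 and -4.49 in PBMC. Bird 1 was the lowest in both, and its PBMC array was not well above background. The difference was -1.83 ± 0.39 (adjusted p = 0.0021), -0.68 with normexp and -0.94 in the authors' deposited values. CSF2RB, the signalling chain for IL-3, IL-5 and CSF2, was well above background on 1 whole blood array and on all 4 PBMC arrays (1.48 ± 0.28, adjusted p = 0.0010). That call was lost with normexp (0.20, adjusted p = 0.21) and in the authors' deposited values (0.18, adjusted p = 0.46).

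**Figure D4:**
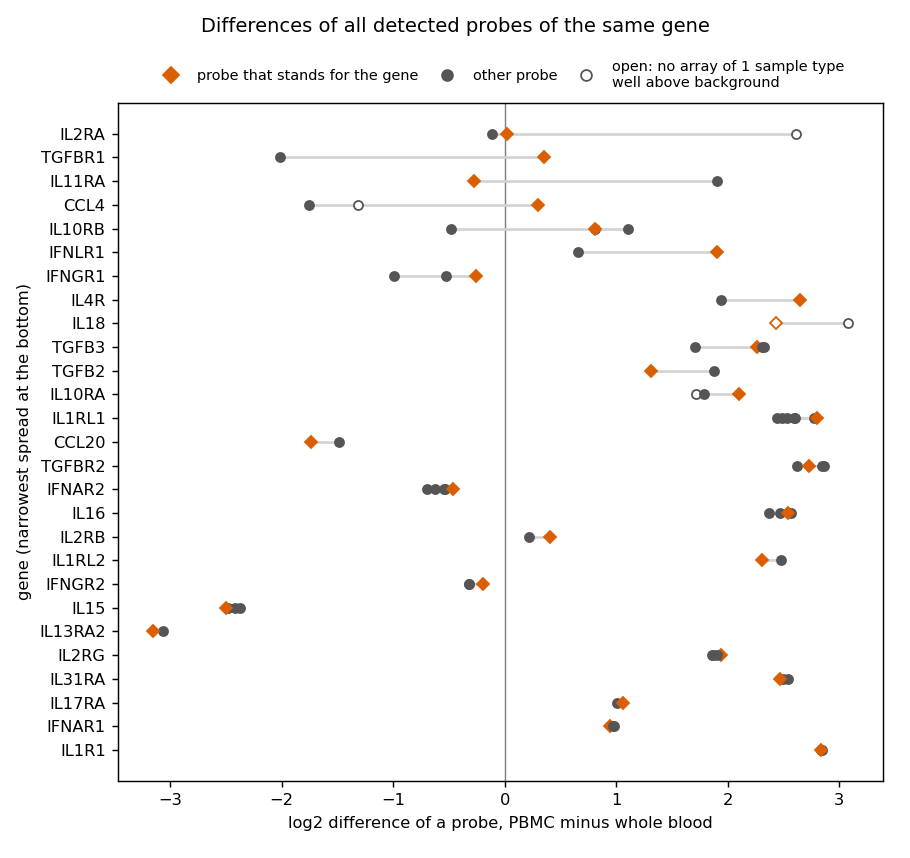
Log2 difference, PBMC minus whole blood, of every detected probe of the 27 genes with several detected probes, with the probe that stands for the gene as a diamond and the widest spread at the top. Open symbols are probes well above background on no array of 1 sample type, whose fitted difference is not exact. IL2RA, TGFBR1, IL11RA, CCL4 and IL10RB have probes on both sides of 0, whereas IL15, IL13RA2 and IL1R1 have probes close together.

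Probes of 27 genes could be compared, and for 5 of them they pointed in opposite directions: IL2RA, TGFBR1, IL11RA, CCL4 and IL10RB. In the main values, the called probes of each of the 5 genes all pointed the same way. The probes on the other side, such as that of IL2RA at -0.11, were not called there. CCL4 had 2 other detected probes, both called lower in PBMC. One of them passed background on 1 PBMC array (-1.75). The other passed on none, and its whole blood mean lay 1.65-fold above a PBMC floor set as for IL18. Which transcripts or exons the probes read was not tested.

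Genes that act next to these ligands and receptors were counted from lists. The share to set beside each count is that over all features tested, 39.7% called higher in PBMC and 39.4% lower. Of 20 chemokine receptor genes and XCL1 listed, 8 had a named probe and 6 were tested, and all 6 were higher in PBMC (median 2.56). Among them were CCR2, the receptor of monocyte chemoattractants (3.05), the lymphocyte chemokine XCL1 (2.76) and CXCR4, the receptor of CXCL12 (2.36). Of the JAK, STAT and SOCS list, 5 of 20 tested genes were higher and 11 lower (median -0.59). JAK3, the kinase bound to IL2RG, was higher (2.06) and JAK2 lower (-2.30), and the feedback inhibitors parted likewise, with SOCS2 at 2.48 and CISH at -2.41. The STAT phosphatase PTPN2 was also lower (-2.50).

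For IL-1 receptor signalling, 5 of 7 tested genes were higher and 2 lower (median 1.49). NFKB1 (2.34) and NFKB2 (1.81), which encode NF-kappaB subunits, were higher, whereas TOLLIP, an inhibitor of the pathway (-2.13), and TAB1, which activates the kinase TAK1 (-1.74), were lower. For TGF-beta signalling, 8 of 14 were higher and 4 lower (median 0.72). The inhibitors SMAD7 (2.52) and SKI (2.50) and the latency protein LTBP1 (2.44) were higher, and FURIN, the protease that cuts TGF-beta precursors, was lower (-2.07).

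Markers of cell types moved with the sample types, in a comparison where 39.7% of all features tested were called higher in PBMC and 39.4% lower. The summed linear signal of the markers, relative to the 75th percentile, lay for T cells between 76.7 and 101 in whole blood and between 274 and 363 in PBMC, with 6 of 6 genes called higher. B cell markers summed to 4.36 to 7.99 in whole blood and 23.1 to 46.2 in PBMC, with 4 of 5 higher and 1 not called. Thrombocyte markers summed to 52.9 to 68.4 and, in PBMC, 184 to 264, with 4 of 4 higher, while ITGA2B and GP9 had no named probe. All 3 tested monocyte markers were higher, at sums of 3.02 to 6.50 in whole blood and 19.7 to 35.0 in PBMC, while CD14 and MARCO were not detected in either and CSF1R had no named probe. All 7 red cell markers measured were lower in PBMC, at sums of 2407 to 2689 in whole blood and 277 to 715 in PBMC. A sum weighs the strongest genes most, here globins, which differed by -3.42 (HBE) to -1.76 (HBBA). TFRC (-5.89), CA2 (-5.20) and EPB41 (-3.84) were lowered more. Of 5 heterophil markers 3 were lower and 2 not called, at sums of 15.9 to 26.1 in whole blood and 4.87 to 14.0 in PBMC. The part of these cell types in the ligand and receptor differences was not tested.

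The arrays were alike in most measures of quality, but not in all. Outlier spots numbered 64 and 59 on the whole blood arrays of birds 1 and 3 and 0 to 10 on the other arrays. The lowest level that passed background ranged from -6.10 to -5.32 and was highest on the PBMC array of bird 4. The 75th percentile of the signal was 663 to 846 and 64.4% to 72.1% of probes were well above background, no probe was saturated, and arrays correlated at 0.972 to 0.983 within a sample type and at 0.760 to 0.803 between them. All arrays lay on 1 slide, with whole blood in columns 1 and 2 and PBMC in columns 3 and 4, so the effect of the slide column cannot be told apart from that of the sample type.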

How the data were processed

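Spot intensities were deposited as Agilent Feature Extraction output, background-subtracted and detrended within each array but not scaled between arrays, per the file headers (version 10.7.3.1; the submitters' processing notes name 10.7.1.1). The deposited table of log2 values for 46154 features equals the log2 median signal minus 1 constant per array, without background correction. All columns of per-sample values were used (0 left out).

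Control spots (1319 per array) and outlier spots were left out, spots of the same probe were averaged, and log2 of the processed signal was taken relative to the array's 75th percentile. A gene was represented by its probe with the highest mean. The linear model of limma 3.58.1 (lmFit, then eBayes; R 4.3.3) gave the differences, with the threshold 0.05 after Benjamini-Hochberg adjustment over all features tested. The fit was tested on simulated data. The number of arrays limits the precision.

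Probes were named through RefSeq genes (GRCg7b) by accession (10812 probes, 2121 accessions without a match), gene number (5161), symbol (1637) or synonym (59). A further 1167 kept the symbol in the probe name and 39582 stayed unnamed. IFNLR1 was found through the old symbol IL28RA and CSF2 through GMCSF, and the IL25 probe carries the symbol IL17B in its name. The arrays' build differs from the reference (galGal3), so no coordinates are given.

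The members, lists and markers were chosen with earlier results of these data known, so no test over a list is given. Values on every array are given for CCL5, IL15, IL16 and IL18 and for up to 6 ligands and 6 receptors per direction with the largest called difference and the same direction in 4 birds. IL1RL2, CXCL12 and IL8L2 were added to these after their values were seen. The other tested genes are named with their difference, among them those set against a floor, with probes that disagree, or with a call that changes. Up to 4 genes per pathway list are named, and JAK3 was added after its value was seen. A gene that this rule takes is not reported here.

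Replicate numbers pair the samples, as the labels' design text gives the same birds for both. After the group means were subtracted, the paired arrays of a bird correlated at 0.435, 0.478, 0.359 and 0.417, and arrays of different birds at most at 0.0440. Alternatives were normexp (offset 50, on the median signal), the authors' deposited values, quantile and cyclic loess scaling, the mean of all probes, other filters, blocks for bird and slide row, each row alone, and leaving out arrays or birds.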

Additional observations from a re-analysis of the deposited data

Results flagged for a closer look

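In 3 of 84 groups of 4 arrays (42 tested genes, 2 sample types) 1 array lay far from the other 3, where chance flags about 1 in 20. For CCL20 the PBMC array of bird 2 (-1.85) stood above the nearest other (-3.28), a gap of 0.914 of the group's range. For IL10RB the PBMC array of bird 1 (-1.44) lay below the nearest other (-1.18), a gap of 0.893. For TGFBR1 the PBMC array of bird 2 (-0.16) lay below the nearest other (0.23), a gap of 0.857, and without that array the difference of TGFBR1 was called (0.46, adjusted p = 0.020).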

How the results depend on the processing

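For 22 of the 42 tested genes, direction and call held under every alternative tried. Over all 959 pairs of gene and alternative, 861 kept direction and call, 51 lost the call, 19 gained one and 28 changed direction. The number of ligands lower in PBMC, 4, was 2 on slide row 1 alone. The number of receptors lower, 3, was 5 in the authors' deposited values and 5 with the mean of all probes. Leaving out arrays or birds gave 6 to 8 ligands higher, 3 to 4 lower, 16 to 18 receptors higher and 2 to 4 lower. It gave 15 to 16 ligands detected in whole blood, 15 to 18 in PBMC (18 without bird 4), 24 receptors in whole blood and 25 to 26 in PBMC. Detection on at least 1 array gave 21 and 19 ligands and 26 and 27 receptors in whole blood and PBMC, and reading only the brightest probe gave 15 and 15 ligands and 22 and 25 receptors. With the bird as a block, 7 ligands were higher and 5 lower, 17 receptors higher and 3 lower, and the block changed no call but that of IL25 (-0.58, adjusted p = 0.048).

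No gene that was called in the main fit changed direction. The uncalled ones did so as follows. CCL1 was -0.072 in the authors' deposited values, -0.077 on slide row 1 alone and -0.022 to 0.21 when arrays or birds were left out. CXCL12 was -0.017 in the authors' deposited values, -0.079 with quantile and -0.19 with cyclic loess scaling, and -0.37 to 0.71 with arrays or birds left out. IL2RA was -0.19 with normexp, -0.25 in the authors' deposited values, -0.26 with quantile and -0.36 with cyclic loess scaling, -0.060 on slide row 1 alone and -0.15 to 0.13 with arrays or birds left out. IFNGR2 was 0.15 with quantile and 0.10 with cyclic loess scaling, IL2RB was -0.026 with cyclic loess and IL4 was -0.024 on slide row 2 alone (1.01 and called on row 1 alone). With the mean of all probes, CCL4 was -0.92 (adjusted p = 0.019), IL11RA 0.82 (adjusted p = 0.0098) and TGFBR1 -0.83, and all were called there. The causes were not tested, except that the last 3 follow from probes of opposite sign.

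The median difference over all features was -0.15 in the authors' deposited values and -0.10 with cyclic loess. With normexp the differences of IL18, IL21R, IL4R and CSF2RB shrank most. Signal over background limits how far down levels can be read.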
